A study of Mus musculus with 6 samples.

Results

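The genes described here encode transcription factors of 3 families: USF (Usf1 and Usf2), C/EBP (Cebpa, Cebpb and Cebpg) and CREB3 (Creb3, Creb3l1, Creb3l2 and Creb3l3). They were taken by gene symbol and make up 9 of the 48967 genes to which counts could be assigned. RNA was sequenced from mouse 2-cell embryos of strain F1 (C57Bl/10 X CBA/H), genotype wt, in 6 libraries that each held a pool of 3 embryos. The 3 Control libraries came from zygotes cultured in fatty acid-free KSOM from 0.5 to 2.0 dpc. The 3 Delipidated libraries came from zygotes that were treated with cytochalasin B, spun at 4200 g and, with sucrose added, at 9500 g, opened in the zona with a laser and freed of their lipid droplets through a 12 µm pipette before the same culture. No spin, opening or aspiration is described for Control zygotes, so the removal of lipid and the handling cannot be told apart. The embryos of several females were mixed and allocated at random, so the replicates are pools of embryos and not separate females, and p-values measure the spread between these pools.

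USF proteins are helix-loop-helix leucine zipper factors that bind the E-box CACGTG as dimers, and in liver and fat they are known for the induction of lipogenic genes by glucose and insulin. C/EBP proteins are leucine zipper factors, of which C/EBPα and C/EBPβ drive fat cell differentiation and liver metabolism. CREB3 family proteins are made as membrane proteins of the endoplasmic reticulum, move to the Golgi when needed, are cut there by the proteases encoded by Mbtps1 and Mbtps2, and then enter the nucleus. The question addressed was whether transcripts of these factors differed between embryos deprived of their lipid droplets and those that kept them.

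The files hold raw counts per exonic part, a piece of a gene's exons, and the parts of each gene were added up. The counts assigned to genes were 12164963, 16165958 and 12980787 in Control replicates 1, 2 and 3, and 20059460, 16332103 and 14683741 in Delipidated replicates 1, 2 and 3. A read that spans several parts is counted in each, so a sum exceeds the number of reads and its apparent precision is too high. Sums can be raised more in genes cut into many short parts, so levels per length are not strictly comparable between genes. Levels are given as CPM, counts scaled to 1000000 per library after TMM scaling, or as CPM per kb of exonic length where genes are compared. Fewer genes had a count in Delipidated libraries (17091, 19408 and 20158) than in Control libraries (22855, 22437 and 20582), without overlap between the groups, although Delipidated replicate 1 had the most counts. The part of this difference in the counts of 0 given here for Delipidated libraries was not tested. Where 3 values follow each other, they are replicates 1, 2 and 3 of a group. Of the genes listed as markers of oocytes and 2-cell embryos, 12 of 12 were counted in each library, and Dppa3 was the most abundant by its mean over the 6 libraries, with Tcl1 above it in 3 of them. Their summed level was 3842, 2428 and 3499 CPM in Control and 2872, 2828 and 4283 CPM in Delipidated libraries.

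None of the 9 factor genes passed the threshold between the groups, an adjusted p under 0.05 with a log2 fold change beyond 1. Of the 9 genes, 7 had enough counts to be tested with edgeR's quasi-likelihood test, and all 7 had a Benjamini-Hochberg adjusted p of 1.00. Over all genes, 0 of 16020 tested genes (0%) were called by edgeR and 0 by limma-voom, whereas DESeq2 with no filter on low counts called 9 genes higher and 40 lower in Delipidated embryos, with 0 of the 9 factor genes among them. At an unadjusted p under 0.05, edgeR listed 463 genes (2.89%), of which 279 (1.74%) were lower in Delipidated embryos. Among the factor genes Usf1 and Creb3 were below that limit, both lower in Delipidated embryos. The Control and Delipidated libraries overlapped for each of the 9 genes, against a background of 8.86% of tested genes whose groups did not overlap. The median log2 fold change of the 7 tested factor genes was -0.12, beside 0.00 over all tested genes.

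**Figure D1:**
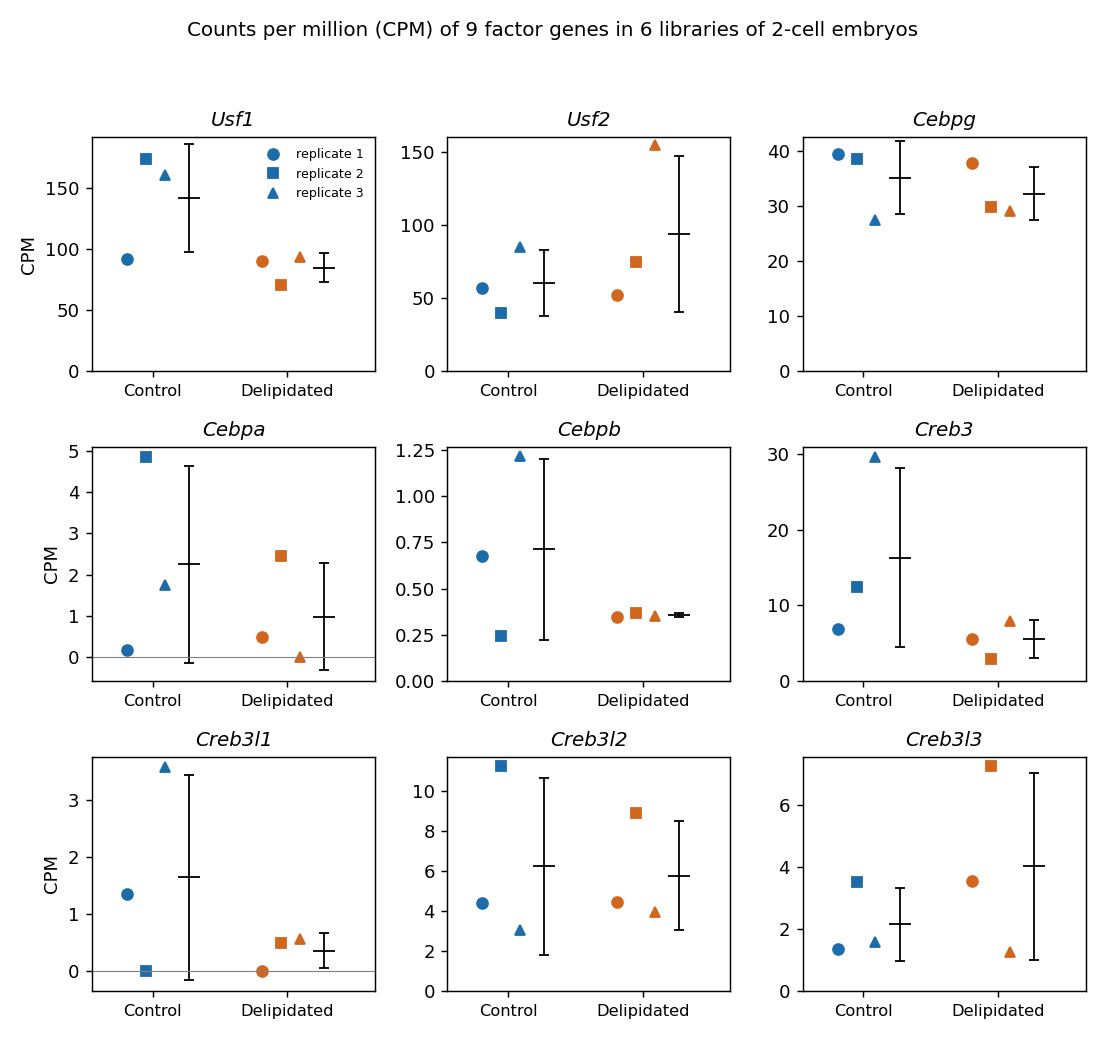
Scaled counts (CPM) of the 9 genes in each library, with blue points for Control, orange points for Delipidated, and the mean with its SD over 3 libraries in black; each panel has its own linear axis. Usf1 lay between 92.0 and 174 CPM in Control and between 71.1 and 93.4 CPM in Delipidated libraries, and the groups overlapped in every panel.

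Usf1 (ENSMUSG00000026641, chr1:171411313-171419142, plus strand, GRCm38) was the most abundant of the 9 per length by the mean over the 6 libraries. Usf2 was above it in Delipidated replicates 2 and 3 (28.3 against 27.3 and 58.2 against 35.8 CPM per kb). The level of Usf1 was 92.0, 174 and 160 CPM in Control and 90.7, 71.1 and 93.4 CPM in Delipidated libraries. The 3 Delipidated libraries and Control replicate 1 lay close together, and Control replicates 2 and 3 were high, so that Delipidated replicate 3 exceeded Control replicate 1. The group means were 142 ± 44.0 CPM and 85.0 ± 12.2 CPM (SD, n = 3 each), and log2 of their ratio was -0.74 ± 0.28 (standard error) in the fit. The unadjusted p was 0.0215 by edgeR's quasi-likelihood test, the adjusted p 1.00, and an exact two-sided permutation test gave p = 0.2, where 3 against 3 libraries cannot go below 0.1. In bulk libraries fewer cells with a transcript and less of it per cell cannot be told apart.

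Usf2 (ENSMUSG00000058239, chr7:30945248-30956803, minus strand) encodes the usual dimer partner of USF1. Its level was 56.8, 39.7 and 84.7 CPM in Control and 52.2, 74.9 and 154 CPM in Delipidated libraries. Delipidated replicate 3 stood above all others, and the remaining 5 libraries were interleaved. The means were 60.4 ± 22.7 CPM and 93.8 ± 53.6 CPM (SD, n = 3 each), and the fitted log2 change was 0.64 ± 0.41 (standard error; edgeR p = 0.147, exact permutation p = 0.5). Without Delipidated replicate 3 it was 0.07.

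The balance between the USF genes varied from library to library. Of the counts of both genes, Usf1 held 61.8, 81.5 and 65.5% in Control and 63.5, 48.7 and 37.7% in Delipidated libraries. Usf1 exceeded Usf2 in 4 of 6 libraries and fell behind it in Delipidated replicates 2 and 3. Their sum was 149, 214 and 245 CPM in Control and 143, 146 and 248 CPM in Delipidated libraries, with the highest and the lowest value both in Delipidated libraries.

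Counts lay along the whole of Usf1, in 20 to 30 of its 32 exonic parts per library. Between 67.2 and 81.2% of its counts fell in parts that hold coding sequence. The part with the most counts over the 6 libraries, a coding exon piece of 224 bases at chr1:171417641-171417864, held 140, 302 and 195 counts in Control and 183, 71 and 96 counts in Delipidated libraries. From this part alone the log2 change was -1.21 ± 0.38 (standard error), with an unadjusted p of 0.00696 and a Benjamini-Hochberg adjusted p of 1.00 by edgeR's quasi-likelihood test. A neighbouring coding part of 59 bases at chr1:171417473-171417531 held 77, 338 and 240 counts in Control and 113, 86 and 64 in Delipidated libraries. Control replicates 2 and 3 were highest in both of these exons after scaling. The 3′ UTR part at chr1:171418122-171418431 held 74, 159 and 52 counts in Control and 65, 47 and 75 in Delipidated libraries, with only Control replicate 2 apart. Coding parts also differed among themselves. The part at chr1:171415505-171415554 held 61, 121 and 100 against 113, 92 and 115 counts, and Delipidated replicate 3 was highest after scaling. In the part at chr1:171416810-171416977, with 94, 212 and 201 against 232, 77 and 103 counts, Delipidated replicate 1 exceeded Control replicate 1 after scaling. All 32 parts stand in the files under a joined identifier of Usf1 and the overlapping gene Tstd1. They were given to Usf1 because they meet exons of Usf1 alone, and 2 parts shared by both genes were left out.

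In Usf2 counts lay in 20 to 22 of 25 parts. The 4 parts with the most counts over the 6 libraries were neighbouring coding parts, and the most counted of these, 47 bases at chr7:30955106-30955152, held 104, 90 and 162 counts in Control and 144, 202 and 299 in Delipidated libraries. In the 3′ UTR part of 1322 bases at chr7:30945252-30946573 the counts were 72, 83 and 97 in Control and 131, 39 and 142 in Delipidated libraries. Delipidated replicate 2 was the second highest library in the coding part and the lowest in the 3′ UTR part. The kit marks strand, but 5 parts of Usf2 overlap the antisense genes Gm17077 and Gm44662, and the Gm17077 part at chr7:30955825-30955991 held 41, 19 and 71 counts in Control and 17, 55 and 119 in Delipidated libraries. Reads from these gene pairs cannot be told apart in the files, and without the 5 parts the log2 fold change of Usf2 was 0.62.

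**Figure D2:**
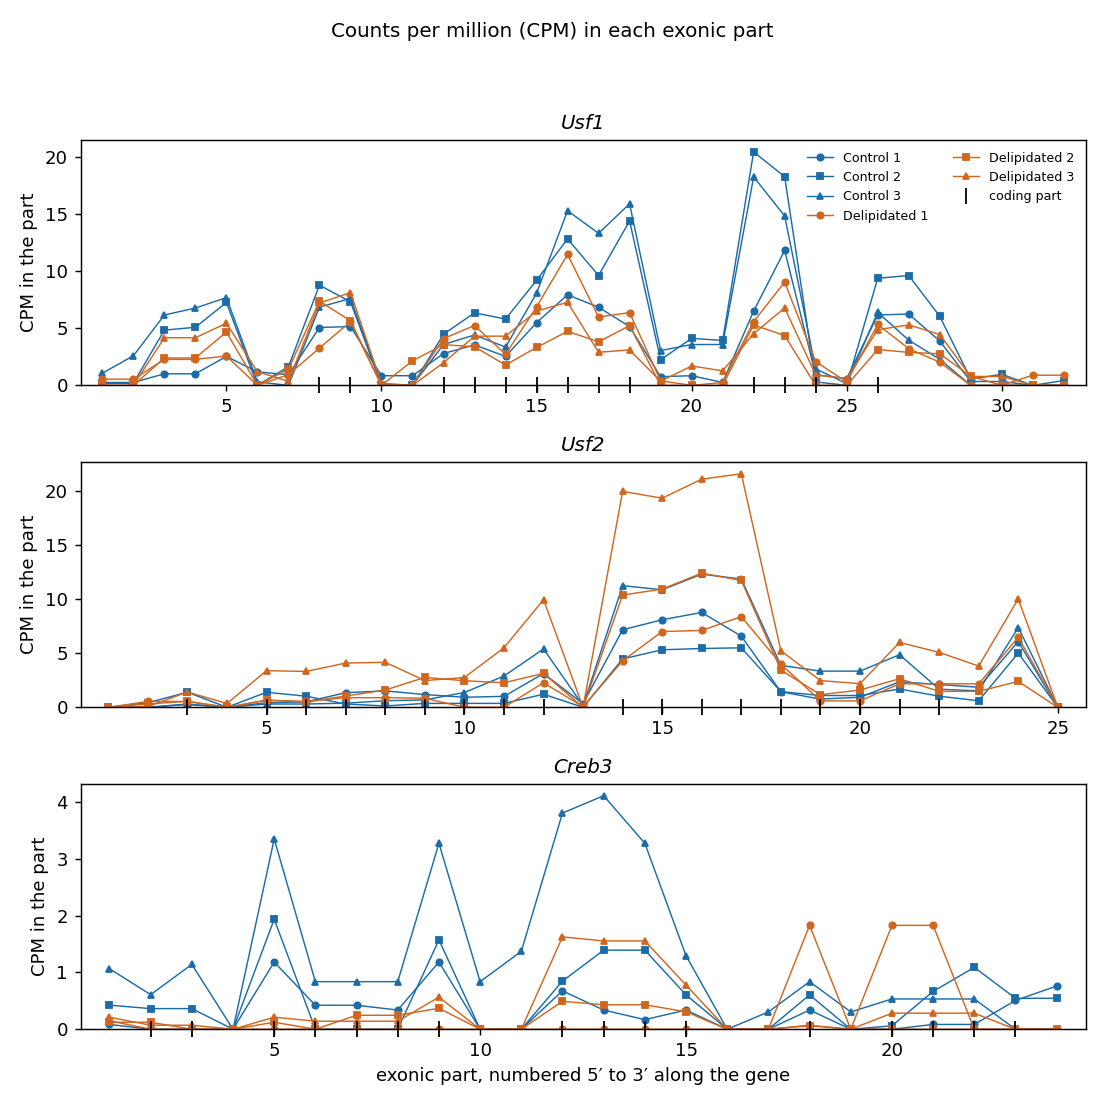
Scaled counts (CPM) in each exonic part of Usf1, Usf2 and Creb3, numbered from the 5′ to the 3′ end, with blue lines for Control and orange lines for Delipidated libraries; ticks at the base mark parts that hold coding sequence. Control replicates 2 and 3 stand out over several coding parts of Usf1, Delipidated replicate 3 over the middle of Usf2, and Control replicate 3 over much of Creb3.

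Cebpg (ENSMUSG00000056216, chr7:35046422-35056573, minus strand) encodes C/EBPγ, a member without an activation domain of its own that works through its partners. It was the steadiest of the 9 genes, with 39.6, 38.6 and 27.5 CPM in Control and 37.9, 29.9 and 29.2 CPM in Delipidated libraries. The groups were interleaved, and its coefficient of variation over the 6 libraries was 16.2%, against 37.5% for Usf1 and 88.7% for Creb3. The means were 35.2 ± 6.69 CPM and 32.3 ± 4.86 CPM (SD, n = 3 each), and the fitted log2 change was -0.12 ± 0.33 (standard error; edgeR p = 0.715, exact permutation p = 0.7), with -0.28 without Control replicate 3 and -0.02 without Control replicate 1. The coding part of 550 bases at chr7:35050315-35050864 held 175, 261 and 151 counts in Control and 305, 242 and 152 in Delipidated libraries. All 10 parts counted for Cebpg are listed jointly with the overlapping gene Gm44836. The part at the start of Cebpg held 20, 30 and 0 counts in Control and 31, 46 and 9 in Delipidated libraries, and a part of Gm45095 that overlaps it on the other strand held 20, 22 and 0 and then 31, 40 and 8. Without the part of Cebpg the log2 change was -0.15 ± 0.34 (standard error).

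Cebpa and Cebpb, the factors of fat cell and liver differentiation, had few counts, at most 80 and 16 in a library. Cebpa (ENSMUSG00000034957, chr7:35119293-35121928, plus strand) had 2, 80 and 23 counts in Control and 10, 40 and 0 counts in Delipidated libraries, that is 0.169, 4.84 and 1.75 CPM and 0.494, 2.46 and 0 CPM. Control replicate 2 and Delipidated replicate 2 held most of the counts of their groups, and the count of 0 allows up to 0.212 CPM when 3 counts are taken as the limit. Such limits cover counting error only and are wider for reads, since a read can give several counts. The log2 change of -1.19 ± 1.63 (standard error; exact permutation p = 0.6) was 0.04 without Control replicate 2 and -3.12 without Delipidated replicate 2.

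Cebpb (ENSMUSG00000056501, chr2:167688915-167690418, plus strand) is a gene with a single exon and did not pass the filter on low counts. It had 8, 4 and 16 counts in Control and 7, 6 and 5 counts in Delipidated libraries. Its level was 0.675, 0.242 and 1.22 CPM against 0.346, 0.369 and 0.353 CPM, with the Delipidated libraries inside the range of the Control ones (exact permutation p = 0.4). Its only part overlaps, on the other strand, a part of Tmem189 and Ube2v1 that held 3, 1 and 9 counts in Control and 7, 0 and 1 counts in Delipidated libraries. Reads of these genes cannot be told apart in the files, so the level of Cebpb may include reads from the other strand. Of the summed level of Cebpa, Cebpb and Cebpg, Cebpg held 97.9, 88.4 and 90.3% in Control and 97.8, 91.4 and 98.8% in Delipidated libraries.

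Creb3 (ENSMUSG00000028466, chr4:43562332-43567060, plus strand) had the highest mean level per length of the 4 CREB3 family members described here when all parts were summed. From the longest part of each gene the mean of Creb3l3 was above it (1.12 against 0.712 CPM per kb). That order came from Delipidated replicates 1 and 2 (Creb3l3 3.1 and 1.97, Creb3 0.308 and 0.255 CPM per kb). In every other library the longest part of Creb3 was above that of Creb3l3. Creb3l4, a further gene of that family that is listed among the relatives and was named after its values were seen, was above Creb3 with all parts summed. Its level was 36.7 CPM per kb, with 75.3, 38.8 and 76.5 CPM in Control and 34.2, 51.5 and 93.8 CPM in Delipidated libraries. The Creb3 level was 6.92, 12.4 and 29.6 CPM in Control and 5.63, 2.95 and 7.98 CPM in Delipidated libraries. Control replicate 3 was far above the others, and Delipidated replicate 3 exceeded Control replicate 1. The means were 16.3 ± 11.9 CPM and 5.52 ± 2.52 CPM (SD, n = 3 each), and the fitted log2 change was -1.56 ± 0.64 (standard error). The unadjusted p was 0.0323 by edgeR's quasi-likelihood test, the adjusted p 1.00 and the exact permutation p 0.2. Without Control replicate 3 it was -0.81.

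The Creb3 counts came from different stretches of the gene in different libraries. Of its 24 parts, 15, 15 and 20 had counts in Control and 4, 11 and 16 in Delipidated libraries. Of the 114 counts in Delipidated replicate 1, 37 lay in each of the coding parts chr4:43566120-43566204, chr4:43566294-43566378 and chr4:43566469-43566527, and the other 3 in the part at the start of the gene. A read that spans neighbouring exons is counted in each of them, and reads without molecular identifiers are not independent molecules. In Control replicate 3 the most counted part, 56 bases at chr4:43565261-43565316, held 54 counts, against 4 and 23 in Control replicates 1 and 2 and 0, 7 and 22 in Delipidated libraries. The first and the last part of Creb3 overlap parts of Tln1 and Gba2 on the other strand. The first part held 1, 7 and 14 counts in Control and 3, 2 and 3 in Delipidated libraries, and the 2 Tln1 parts that meet it held 2, 7 and 0 and then 3, 0 and 3, and 0, 7 and 12 and then 0, 0 and 3. Without the first and the last part the log2 change of Creb3 was -1.52 ± 0.67 (standard error).

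The other 3 CREB3 family members described here were scarce. Creb3l2 (ENSMUSG00000038648, chr6:37327255-37442146, minus strand), known from cartilage and secretory cells, had 4.39, 11.2 and 3.04 CPM in Control and 4.44, 8.91 and 3.95 CPM in Delipidated libraries. Replicate 2 was the highest in either group, and the log2 change of -0.11 ± 0.71 (standard error) was 0.64 without Control replicate 2, -0.57 without Delipidated replicate 2 and -1.52 from the part with the most counts alone. Creb3l3 (ENSMUSG00000035041, chr10:81084324-81098874, minus strand), a regulator of lipid and glucose metabolism in liver and gut, had 1.35, 3.51 and 1.60 CPM in Control and 3.56, 7.25 and 1.27 CPM in Delipidated libraries. The lowest and the highest library were both Delipidated, and the log2 change of 0.90 ± 0.95 (standard error) was 0.16 without Delipidated replicate 2 and 1.45 without Control replicate 2. The Creb3l3 counts of Delipidated replicate 1 lay in 2 of 19 parts, with 51 of 72 in the last one at chr10:81084324-81085134.

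Creb3l1 (ENSMUSG00000027230, chr2:91982328-92024502, minus strand), known from bone and other collagen-secreting cells, was not tested for want of counts. It had 16, 0 and 47 counts in Control and 0, 8 and 8 counts in Delipidated libraries, where the 2 counts of 0 allow up to 0.181 and 0.148 CPM. No library had a count in its first 4 parts, which lie between chr2:91993271 and chr2:92024502. The 4 genes Creb3, Creb3l1, Creb3l2 and Creb3l3 summed to 14.0, 27.2 and 37.9 CPM in Control and 13.6, 19.6 and 13.8 CPM in Delipidated libraries, and Creb3 made up 29.6 CPM of the sum in Control replicate 3.

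Per length and over the 6 libraries, the order of the 9 genes began with Usf1 at 43.6 ± 16.4 CPM per kb (SD, n = 6) and Usf2 at 29.1 ± 15.5 CPM per kb, which overlapped. Usf1 was above Usf2 in each Control library and in Delipidated replicate 1. In Delipidated replicates 2 and 3 Usf2 was above, as was its mean over the Delipidated libraries alone. Below both genes came Cebpg at 6.09 ± 0.985 and Creb3 at 4.60 ± 4.08 CPM per kb, and with all parts summed Usf2 exceeded Cebpg in all 6 libraries. Cebpg and Creb3 overlapped, as did Creb3 and the next gene. Creb3 was above Cebpg in Control replicate 3 (12.5 against 4.96 CPM per kb) and below it in every other library. That library put the mean of Creb3 over the Control libraries above that of Cebpg, whereas over the Delipidated libraries it was below. Usf1 lay at percentile 92.0 of the tested genes by this level, Usf2 at 87.9, Cebpg at 61.5 and Creb3 at 55.9. A read is counted once in each part it spans, and the genes are cut unequally. Usf1 had 32 parts in 2.61 kb, Usf2 25 in 2.65 kb, Creb3 24 in 2.37 kb and Cebpg 10 in 5.55 kb. The share of this in the order and the percentiles was not tested. The median tested gene had 3.47 CPM per kb. Then came Creb3l3 at 1.02, Creb3l2 at 0.823, Cebpa at 0.614, Creb3l1 at 0.383 and Cebpb at 0.355 CPM per kb, all below percentile 25 and none apart from its neighbour beyond the spread. Single libraries weighed on these means: without Control replicate 3 Creb3 was at 3.02 and Creb3l1 at 0.185 CPM per kb, and without Control replicate 2 Cebpa was at 0.369 CPM per kb. With the longest part of each gene in place of all parts, Usf1, Usf2 and Cebpg kept ranks 1 to 3 at 11.4, 4.71 and 3.38 CPM per kb, but Usf2 was below Cebpg in Delipidated replicate 2 (1.81 against 2.12 CPM per kb). By the mean Creb3 then fell to rank 5 at 0.712 CPM per kb, below Creb3l3 at 1.12 CPM per kb. Single libraries weighed on these means too. Creb3l3 was above Creb3 only in Delipidated replicates 1 and 2, and Creb3 was highest in Control replicate 3 at 2.21 CPM per kb.

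The most counted parts of Usf1, Usf2 and Creb3 are shown as examples of where reads of these genes lay, and each holds a minor share of its gene's counts. The sequences are those of GENCODE vM21 transcripts (GRCm38), 5′ to 3′ on the strand of the gene, in lower case throughout because no base is singled out. The Usf1 part encodes most of the helix-loop-helix region, and the Creb3 part encodes the start of the basic region that contacts DNA.
Usf1, chr1:171417641-171417864, plus strand: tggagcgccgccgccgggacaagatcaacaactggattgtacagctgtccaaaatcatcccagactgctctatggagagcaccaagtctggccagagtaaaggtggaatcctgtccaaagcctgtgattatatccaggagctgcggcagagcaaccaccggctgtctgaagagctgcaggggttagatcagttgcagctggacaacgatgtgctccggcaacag
Usf2, chr7:30955106-30955152, minus strand: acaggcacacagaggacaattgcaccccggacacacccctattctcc
Creb3, chr4:43565261-43565316, plus strand: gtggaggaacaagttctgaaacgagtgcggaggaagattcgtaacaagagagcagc

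Promoter windows of 300 bases, 250 before to 50 after the start of a gene, were available from RefSeq (GRCm38.p6) for 7 of the 9 genes, in 9 windows. Usf2 and Creb3l1 had none in the table. The windows were searched on both strands for the USF E-box CACGTG, the C/EBP palindrome TTGCGCAA, the cyclic AMP response element TGACGTCA and the core TGACGTGG of an unfolded protein response element, of which CACGTG, TTGCGCAA and TGACGTCA read the same on both strands and TGACGTGG shares its first 6 letters with TGACGTCA. Over 32851 windows of all genes, 7.15% held CACGTG, 0.183% TTGCGCAA, 1.79% TGACGTCA and 0.676% TGACGTGG. None of the 9 windows of the factor genes held any of these letters. Their content of CG dinucleotides ranged from 7 in the first Creb3l3 window to 50 in that of Cebpb, and those of Cebpg and Cebpa held 38 and 29, beside a median of 7 over all windows.

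The 1225 tested genes with CACGTG in a promoter window had a median log2 fold change of 0.00, and 3.02% had an unadjusted edgeR p under 0.05, beside 0.00 and 3.08% for all 10943 tested genes with a window. For the 35 genes with TTGCGCAA the median was -0.07 and the share below that limit 2.86%, for the 370 with TGACGTCA 0.02 and 1.89%, and for the 106 with TGACGTGG -0.04 and 2.83%. Of all these genes 0 were called, and differences between the shares were not tested.

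Close relatives, partners and known targets of the factors gave 0 called genes in each of 7 lists, and the 2 tested genes with the smallest p are named for each. Of 5 tested relatives (median log2 fold change -0.09), Usf3 had 57.5, 69.7 and 47.7 CPM in Control and 77.6, 86.1 and 69.1 CPM in Delipidated libraries, with Delipidated replicate 3 below Control replicate 2 (log2 change 0.41 ± 0.27, standard error), and Cebpz, which despite its name is no leucine zipper factor, had a log2 change of -0.26 ± 0.32, which ran from -0.46 without Control replicate 1 or Delipidated replicate 1 to 0.03 without Delipidated replicate 3, with -0.10 without Control replicate 2. Of 8 tested E-box binding factors (median 0.28), Mitf and Tfe3, which share the E-box with USF, had log2 changes of 0.91 ± 0.60 (0.55 without Control replicate 3, 1.46 without Control replicate 2) and 0.43 ± 0.29 (0.14 without Delipidated replicate 2). Of 9 tested leucine zipper partners (median 0.18), Hlf had 1.01 ± 1.02 (0.49 without Delipidated replicate 2, 0.56 without Control replicate 3) and Atf4, a partner of C/EBPγ, 0.19 ± 0.22 (0.06 without Delipidated replicate 1). Of 6 tested genes of membrane-bound factor processing and endoplasmic reticulum stress (median -0.16), the protease gene Mbtps1 had 86.4, 126 and 123 CPM in Control and 84.8, 87.8 and 105 CPM in Delipidated libraries, where Control replicate 1 lay among the Delipidated ones, and Atf6 had 88, 248 and 94 counts in Control and 195, 418 and 134 counts in Delipidated libraries, with replicate 2 highest in either group, and its log2 change of 0.60 ± 0.56 was -0.05 without Delipidated replicate 2 and 1.04 without Control replicate 2.

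Of 6 tested USF targets (median -0.14), the cholesterol transporter gene Abca1 had 7, 0 and 228 counts in Control and 93, 15 and 0 counts in Delipidated libraries, and its log2 change of -1.69 ± 1.78 (standard error) was 2.64 without Control replicate 3, -3.65 without Delipidated replicate 1 and -1.11 without Delipidated replicate 3. Acaca, which encodes acetyl-CoA carboxylase, had a log2 change of -0.23 ± 0.34, which was -0.01 without Control replicate 3, -0.08 without Delipidated replicate 1, -0.36 without Control replicate 1 and -0.41 without Delipidated replicate 3. Of 7 tested C/EBP targets (median -0.20), the asparagine synthetase gene Asns had 18, 13 and 42 counts in Control and 0 counts in each Delipidated library (adjusted p 1.00 by edgeR's quasi-likelihood test with Benjamini-Hochberg adjustment), and Csf3r had a log2 change of -1.88 ± 1.49, with -0.98 without Control replicate 2 and -3.00 without Delipidated replicate 3. Of 4 tested CREB3 family targets (median -0.13), the collagen gene Col1a1 had 11, 26 and 42 counts in Control and 0 in each Delipidated library (adjusted p 1.00 by the same test), and Arf4 had a log2 change of 0.48 ± 0.33, with 0.18 without Delipidated replicate 1 and 0.31 without Control replicate 1. Col1a1 also stands in the list of stromal cell markers.

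Markers of other cells moved with the groups in part. The 9 stromal markers summed to 19.8, 18.9 and 30.4 CPM in Control and 1.93, 5.96 and 4.31 CPM in Delipidated libraries, with 7, 6 and 7 of them counted in Control and 1, 2 and 4 in Delipidated libraries. All 4 tested stromal markers had a negative log2 fold change. Among those not tested, Dcn had 0 counts except 27 in Delipidated replicate 3. Thy1 had 2, 2 and 1 counts in Control and 0, 40 and 3 in Delipidated libraries, and the other untested ones were counted in Control libraries only. The most abundant stromal marker, Vim, had 152, 145 and 300 counts in Control, or 12.8, 8.77 and 22.8 CPM of the sums, and 0 in each Delipidated library. Its adjusted p was 0.07 by edgeR's quasi-likelihood test with Benjamini-Hochberg adjustment, and it was called with DESeq2 (adjusted p 1.00e-10) and with edgeR without a filter on low counts (adjusted p 5.70e-12). Cumulus and granulosa markers summed to 5.74, 5.44 and 60.8 CPM in Control, the last from Cyp11a1 at 49.6 CPM in Control replicate 3, and to 1.38, 8.97 and 8.90 CPM in Delipidated libraries, and Ptx3 was at 0 in all 6. Cyp11a1 had 4, 0 and 653 counts in Control and 0 in each Delipidated library and did not pass the filter on low counts. It was called lower in Delipidated embryos by edgeR without the filter (adjusted p 3.14e-13), but not by DESeq2, and this call rests on Control replicate 3 alone. The 9 leukocyte markers, led by Csf1r, summed to 15.1, 9.74 and 9.20 CPM and to 3.31, 3.93 and 13.0 CPM, with Control values first. The 6 markers of oviduct epithelium summed to 83.1, 227 and 113 CPM and to 165, 196 and 111 CPM, nearly all from Epcam alone at 82.5, 221 and 111 CPM and at 156, 193 and 108 CPM. Creb3, Creb3l1 and Cebpb were highest in Control replicate 3, where the stromal and the cumulus and granulosa sums were also highest. The part of these cells in the levels of the factor genes was not tested. The study's methods describe the removal of cumulus cells with hyaluronidase and washes before the zygotes were used.

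Among genes with a mean of at least 20 CPM, the library pattern most like that of Usf1 by Pearson's r of log2(CPM + 1) over the 6 libraries was that of Pcnp (r = 0.978), Ankhd1 (r = 0.978) and Kri1 (r = 0.970). Ankhd1 had 66.2, 112 and 127 CPM in Control and 68.7, 56.2 and 73.2 CPM in Delipidated libraries, and Control replicates 2 and 3 stood above the rest as for Usf1. For Cebpg the most alike were Mios (r = 0.982), Baz1b (r = 0.981) and Zfp939 (r = 0.980). For Creb3 they were Snx17 (r = 0.980), Scarb1 (r = 0.976) and Net1 (r = 0.975), each highest in Control replicate 3. These are the extremes of 6146 genes compared for Usf1 and for Cebpg and of 6147 for Creb3, of which 38, 36 and 27 had an r above 0.9. How many unrelated genes would reach that r over 6 libraries was not determined, so no link to the factors is drawn from it.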

How the data were processed

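The authors deposited raw counts per exonic part for 6 libraries, made per the labels and the study's methods with a strand-specific total RNA kit, bcl2fastq 2.20, Trimmomatic 0.36, STAR 2.5.2b and featureCounts on build mm10. Each library lists 425461 parts. Parts were summed per Ensembl identifier, and symbols, exons and positions were taken from GENCODE vM21 (GRCm38), which matched 49384 of 49644 identifiers. Of 33309 parts under joined identifiers, 27968 were assigned to the gene whose exons alone they overlap, and the others, with 2.49 to 2.57% of counts, were left out. A part is called coding where it overlaps coding sequence of any transcript.

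Groups follow the labels. Gene counts were tested with edgeR 4.0.16 in R 4.3.3 (filterByExpr, minimum count 10 and minimum total 15, TMM, quasi-likelihood test without covariates, Benjamini-Hochberg adjustment over 16020 genes; common biological coefficient of variation 0.663). Genes were called at an adjusted p under 0.05 and a log2 fold change beyond 1. Alternatives used DESeq2 1.42.0, limma 3.58.1 and other filters, part assignments and library sets. The method was tested on simulated counts of 14697 genes. It recovered 23.4% of genes changed 2-fold, 56.5% at 4-fold, 76.1% at 8-fold and 68.8% at 16-fold, so a gene that was not called may still differ. These are shares of the 47, 46, 46 and 32 changed genes that still passed the filter on low counts. Changed genes lost to the filter were left out, so the shares of all changed genes are lower. Tables were handled in Python 3.11.15, with exact two-sided permutation tests over 20 assignments. Named genes are the 9 members, per pathway list the 2 tested genes with the smallest p, per marker list the most abundant gene, and the 3 genes most like the leading member of each family. Tstd1, Gm44836, Tmem189, Ube2v1, Gm17077, Gm44662, Gm45095, Tln1, Gba2, Ptx3, Tcl1, Dcn, Thy1 and Creb3l4 are named besides, as overlapping genes, markers and a relative. The members and lists were chosen with earlier results of these data known.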

Additional observations from a re-analysis of the deposited data

How the results depend on the processing

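Each alternative fit tested 5 to 9 of the 9 factor genes and called 0 of them, and the other results moved as follows. Calls over all genes were 0 in either direction except with DESeq2 and no filter (9 higher, 40 lower in Delipidated embryos) and with edgeR and no filter (5 higher, 25 lower); the cause was not tested. Deviations of same-numbered libraries from their group means had r = -0.133, 0.106 and 0.065, beside -0.262 to 0.208 for differently numbered ones. With 3 libraries per group this cannot decide whether the numbers pair the libraries. With a replicate block there were 0 calls in either direction and 0 among the factor genes, and the log2 fold change was -0.70 for Usf1, -1.43 for Creb3 and 0.02 for Creb3l2, a change of sign from -0.11. With each library left out in turn there were 0 calls in each direction, and the log2 fold change ranged from -0.97 to -0.57 for Usf1, 0.07 to 0.96 for Usf2, -1.92 to -0.81 for Creb3, -0.28 to -0.02 for Cebpg, 0.16 to 1.45 for Creb3l3, -0.57 to 0.64 for Creb3l2 and -3.12 to 0.04 for Cebpa. From the part with the most counts alone it was -1.21 for Usf1 and -1.52 for Creb3l2; the cause was not tested. Usf1, Usf2, Cebpg, Creb3 and Creb3l3 kept their direction in all alternatives that gave a value, and the unadjusted p ranged from 0.00410 to 0.0951 for Usf1 and from 0.0128 to 0.291 for Creb3 (lowest adjusted p 0.532 and 0.484, both with DESeq2). For Usf2 the unadjusted p by edgeR ranged from 0.0320 with no filter (adjusted p 0.7185) to 0.843 without Delipidated replicate 3. It was 0.0333 without Delipidated replicate 1. Without joined parts Usf1 and Cebpg had no counts and could not be fitted. The longest part alone gave 11.4, 4.71, 3.38, 0.712 and 0.293 CPM per kb for Usf1, Usf2, Cebpg, Creb3 and Creb3l2, and 1.12 for Creb3l3, whose mean then stood above that of Creb3. This order of Creb3l3 and Creb3 held only in Delipidated replicates 1 and 2 and turned in every other library. The cause of these differences was not tested. Leaving out parts that overlap the opposite strand was chosen after seeing the data. Depth limits Cebpa, Cebpb, Creb3l1 and Creb3l3, with at most 118 counts in a library.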
